A study of Mus musculus with 22 samples.

Results

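The proteasome subunit genes of mouse kidney cortex are described here in 22 libraries, with the constitutive catalytic subunits set beside their immunoproteasome counterparts. Members were chosen by symbol alone, as every gene whose name begins with Psma to Psmg followed by a digit, which gave 49 of the 16556 genes in the deposited table. Of these, 47 encode a subunit, activator, inhibitor or assembly chaperone of the proteasome. The other 2 were not counted among these. Psmc3ip, which acts in meiotic recombination, shares only the name. Psme2b has a symbol that marks it as a copy of Psme2, and reads may be split between Psme2 and Psme2b. After a filter on low counts 48 members were tested among 15064 genes. The member left out was Psma8, the testis form of an alpha-ring subunit, at 0 to 0.668 CPM, the tag count scaled to a common library size. Psmb11, the catalytic subunit of the thymus form, was not analysed here.

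The animals were male C57BL/6J mice carrying a floxed Crat gene, which encodes the mitochondrial enzyme carnitine acetyltransferase. In Pt-CrAT animals Crat is deleted in proximal tubular cells by a Cre under the promoter of Ggt, while fl/fl animals carry the floxed gene without that deletion, and every library was made from whole cortex. The groups were Pt-CrAT (n = 3) and fl/fl (n = 3) at 12 months with LFD in the title, a word the labels do not spell out. At 15 months on chow there were 3 libraries labelled Pt-CrAT and 3 labelled fl/fl, and at 24 months on chow 5 Pt-CrAT and 5 fl/fl. Diet changes together with age between 12 and 15 months, so no comparison was made between the 12-month animals and the later ages.

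Crat itself was read first. At 24 months Crat was at 28.4 to 38.9 CPM in Pt-CrAT cortex and at 43.5 to 112 CPM in fl/fl cortex, with no overlap. The log2 fold change was -1.04 and did not pass the test used below (edgeR, adjusted p under 0.05). At 12 months Crat was at 42.4, 81.1 and 64.2 CPM in Pt-CrAT and at 54.0, 84.6 and 98.0 CPM in fl/fl. The groups overlapped, and the log2 fold change of -0.33 did not pass either. At 15 months it went against the labels, with 63.1, 72.6 and 71.8 CPM in the libraries labelled Pt-CrAT and 41.5, 34.3 and 60.0 CPM in those labelled fl/fl. Whether the tags counted lie outside the deleted part of the gene is not known, and any direction drawn from the 15-month genotype labels carries this doubt. Total counts were 12175804 to 17447367 per library, with CrAT12MLFD345 at 53157575. The 12 proximal tubule markers summed to 11679 to 78340 CPM and each was present in all 22 libraries. Kap alone was at 2853 to 55719 CPM, the largest of the 12 in every library but CrAT24Mchow136, so these sums mostly follow Kap.

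The proteasome is the protease that degrades proteins tagged with ubiquitin. Its barrel, the 20S core, is built from alpha rings (Psma genes) that gate entry and beta rings (Psmb genes) that hold the catalytic sites, and the 19S cap (Psmc ATPases and Psmd subunits) binds, unfolds and threads the substrate. Interferon signalling is known to induce Psmb8, Psmb9 and Psmb10, which take the places of Psmb5, Psmb6 and Psmb7 in newly assembled cores and shift the peptides made towards those presented on MHC class I. Constitutive subunit genes are known targets of the factor NRF1, encoded by Nfe2l1, which binds antioxidant response elements in their promoters. In kidney, tubular epithelium carries most of the cortical mRNA, while immunoproteasome genes are high in leukocytes.

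Promoter sequence is shown for the catalytic subunits on which the comparison of constitutive and immunoproteasome genes turns, and for Psmb3, a beta-ring member that was lower at 24 months. Each stretch is the 100 bases, 5′ to 3′ on the gene's strand, that lie upstream of every annotated exon, from RefSeq on build GRCm38.p6, and capitals mark an antioxidant response element core (TGACNNNGC).
Psmb5: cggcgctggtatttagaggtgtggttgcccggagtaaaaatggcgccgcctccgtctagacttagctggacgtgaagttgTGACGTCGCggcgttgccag
Psmb6: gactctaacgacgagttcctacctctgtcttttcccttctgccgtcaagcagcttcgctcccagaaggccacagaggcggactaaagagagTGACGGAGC
Psmb10: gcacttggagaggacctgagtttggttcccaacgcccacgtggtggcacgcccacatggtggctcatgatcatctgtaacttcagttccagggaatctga
Psmb3: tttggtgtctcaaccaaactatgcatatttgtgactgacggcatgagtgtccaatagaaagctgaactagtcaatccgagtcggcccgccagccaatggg
The Psmb5 stretch is at chr14:54618023-54618122 (minus strand), Psmb6 at chr11:70525257-70525356 (plus strand), Psmb10 at chr8:105938445-105938544 (minus strand) and Psmb3 at chr11:97703299-97703398 (plus strand). The RefSeq windows of Psmb8 and Psmb9 lie inside exons of longer annotated transcripts and are not printed. Over windows from 250 bases before to 50 after each gene's start, searched on both strands, the antioxidant response element core was found in 6 of the 41 members with a window (14.6%), which were Psmb5, Psmb6, Psmc6, Psmd9, Psmd12 and Psme4, against 13.99% of all 27025 genes with one. The interferon-stimulated response element core (GAAA, any 2 bases, GAAA) was found in 5 of 41 members (12.2%), Psmb3, Psmd4, Psmd9, Psme1 and Psmg4, against 3.99% of all genes. Neither core was found in the windows of Psmb8, Psmb9 and Psmb10. No window was available for Psmb7 or Psmd3, so these genes were not searched and are not printed.

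Levels are tag counts scaled to CPM with TMM factors; since 3′ sequencing reads each transcript near its end, they were not divided by length. Summed over all members, the family reached 7800 ± 532 CPM in Pt-CrAT and 6970 ± 565 CPM in fl/fl at 12 months (SD, n = 3 each). At 15 months the sum was 6909 ± 137 CPM in the libraries labelled Pt-CrAT and 6890 ± 224.6 CPM in those labelled fl/fl (n = 3 each), and at 24 months 5855 ± 414 CPM in Pt-CrAT and 6408 ± 231 CPM in fl/fl (n = 5 each). The single-gene means over the 22 libraries ran from 0.23 CPM for Psma8, which was not tested, to 648 CPM for Psmd3, a lid subunit of the cap. The lowest mean among the members tested was 0.7 CPM, for Psme2b. Members differed widely in how much they varied. Psma5, an alpha-ring subunit, spanned 15.7-fold between its lowest and highest library, Psmg1, an alpha-ring assembly chaperone, 8.4-fold and Psmc5, a cap ATPase, 5.6-fold, whereas Psmd1, a scaffold of the cap, spanned 1.46-fold.

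**Figure D1:**
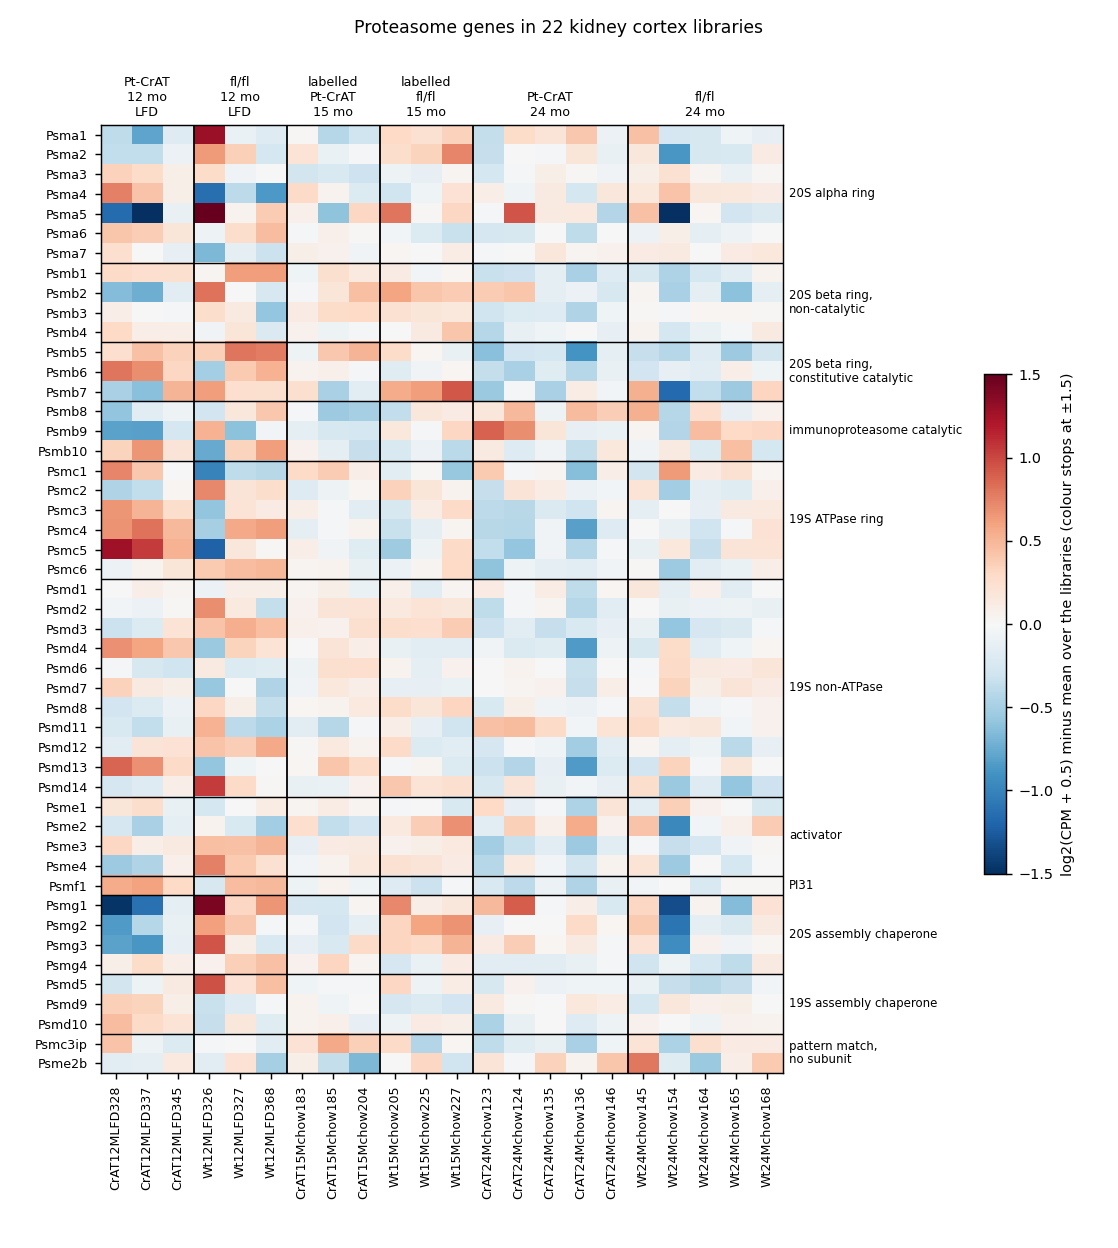
Heat map of 48 proteasome members (rows, by role) in the 22 libraries (columns, by group), as log2(CPM + 0.5) minus the member's mean over the libraries; red is above that mean and blue below, and the colour scale stops at ±1.5. The strongest colours sit in CrAT12MLFD328, CrAT12MLFD337, Wt12MLFD326 and Wt24Mchow154, where Psma5 and Psmg1 lie at their extremes.

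At 12 months the proteasome genes did not move as a block. Of 48 members tested, 19 passed the test between Pt-CrAT and fl/fl (39.6%; edgeR quasi-likelihood, Benjamini-Hochberg adjusted p under 0.05 over all genes), against 16.4% of all genes. There were 9 that rose (8.41% of all genes did) and 10 that fell (7.95% of all genes did). The median log2 fold change of the members was -0.13, beside 0.00 over all genes tested. Ranges of the 3 Pt-CrAT and 3 fl/fl libraries did not overlap for 20 members, 10 above and 10 below, against 30.1% of all genes.

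The alpha ring held changes in both directions. Psma4 was at 189, 149.8 and 118 CPM in Pt-CrAT and at 50.6, 84.9 and 61.0 CPM in fl/fl. Every Pt-CrAT library was above every fl/fl library, a log2 fold change of 1.21 (SE 0.19, adjusted p = 0.00363). Psma7 rose as well (0.42, SE 0.13, adjusted p = 0.0355). Psma5, in the same ring, was at 5.57, 4.11 and 12.1 CPM in Pt-CrAT and at 64.7, 13.5 and 17.2 CPM in fl/fl. Its groups did not overlap, but the gap between 12.1 and 13.5 CPM was small beside the 64.7 CPM of Wt12MLFD326, and the log2 fold change was -2.07 (SE 0.56, adjusted p = 0.0223). Psma1 also fell (-0.95, SE 0.29, adjusted p = 0.0339), at 29.8, 22.3 and 34.1 CPM in Pt-CrAT and 96.6, 36.5 and 34.1 CPM in fl/fl, and its groups touched. Psma2, Psma3 and Psma6 did not pass.

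Among the 6 ATPases of the cap, which unfold substrates, 3 rose and 1 fell. Psmc5 was at 247, 211 and 146.1 CPM in Pt-CrAT and at 43.8, 115 and 103 CPM in fl/fl. All 3 Pt-CrAT libraries were above all 3 fl/fl libraries, with a log2 fold change of 1.20 (SE 0.27, adjusted p = 0.00996). Psmc1 was at 646, 515 and 385 CPM in Pt-CrAT and at 194, 298 and 290.1 CPM in fl/fl, without overlap (0.98, SE 0.24, adjusted p = 0.0143). Psmc3 rose by less (0.53, SE 0.18, adjusted p = 0.0483), and Psmc2 fell (-0.66, SE 0.18, adjusted p = 0.0223).

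Of the 11 non-ATPase subunits of the cap, 2 rose and 1 fell. Psmd13, a lid subunit, was at 949.6, 830.5 and 629 CPM in Pt-CrAT and at 347, 496 and 516 CPM in fl/fl, with no overlap (0.83, SE 0.20, adjusted p = 0.0127). Psmd7, the lid partner of the deubiquitinase Psmd14, rose too (0.51, SE 0.15, adjusted p = 0.0245). Psmd3 fell (-0.57, SE 0.15, adjusted p = 0.0171), at 507, 551 and 729 CPM in Pt-CrAT and at 853, 927 and 865 CPM in fl/fl. Psmd14 itself was at 21.7 CPM on average in Pt-CrAT and 33.8 CPM in fl/fl, and did not pass (adjusted p = 0.055). The ubiquitin receptor Psmd4 did not pass either (adjusted p = 0.073), although its groups did not overlap, with means of 837 CPM in Pt-CrAT and 582 CPM in fl/fl.

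The assembly chaperones moved in both directions. Of the 4 chaperones of the 20S core, 3 fell and none rose. Psmg1 was at 3.10, 4.11 and 8.58 CPM in Pt-CrAT and at 26.2, 12.0 and 15.3 CPM in fl/fl, with no overlap (-1.68, SE 0.41, adjusted p = 0.0147). Psmg2, which pairs with Psmg1, fell by 0.79 on the log2 scale (SE 0.25, adjusted p = 0.0366). Psmg3 was at 27.5, 26.2 and 44.3 CPM in Pt-CrAT and at 93.6, 51.4 and 41.4 CPM in fl/fl, overlapping (-0.92, SE 0.27, adjusted p = 0.0289). Its partner Psmg4 had means of 25.4 CPM in Pt-CrAT and 28.0 CPM in fl/fl and did not pass. Among the 3 chaperones of the cap, Psmd9 (0.44, adjusted p = 0.023) and Psmd10 (0.42, adjusted p = 0.039) rose, and Psmd5 (-0.64, adjusted p = 0.0185) fell. The beta-ring subunit Psmb2, at 5.34 CPM on average in Pt-CrAT and 9.40 CPM in fl/fl, fell (-0.78, SE 0.27, adjusted p = 0.0487) and was the only one of 4 non-catalytic beta subunits to pass.

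**Figure D2:**
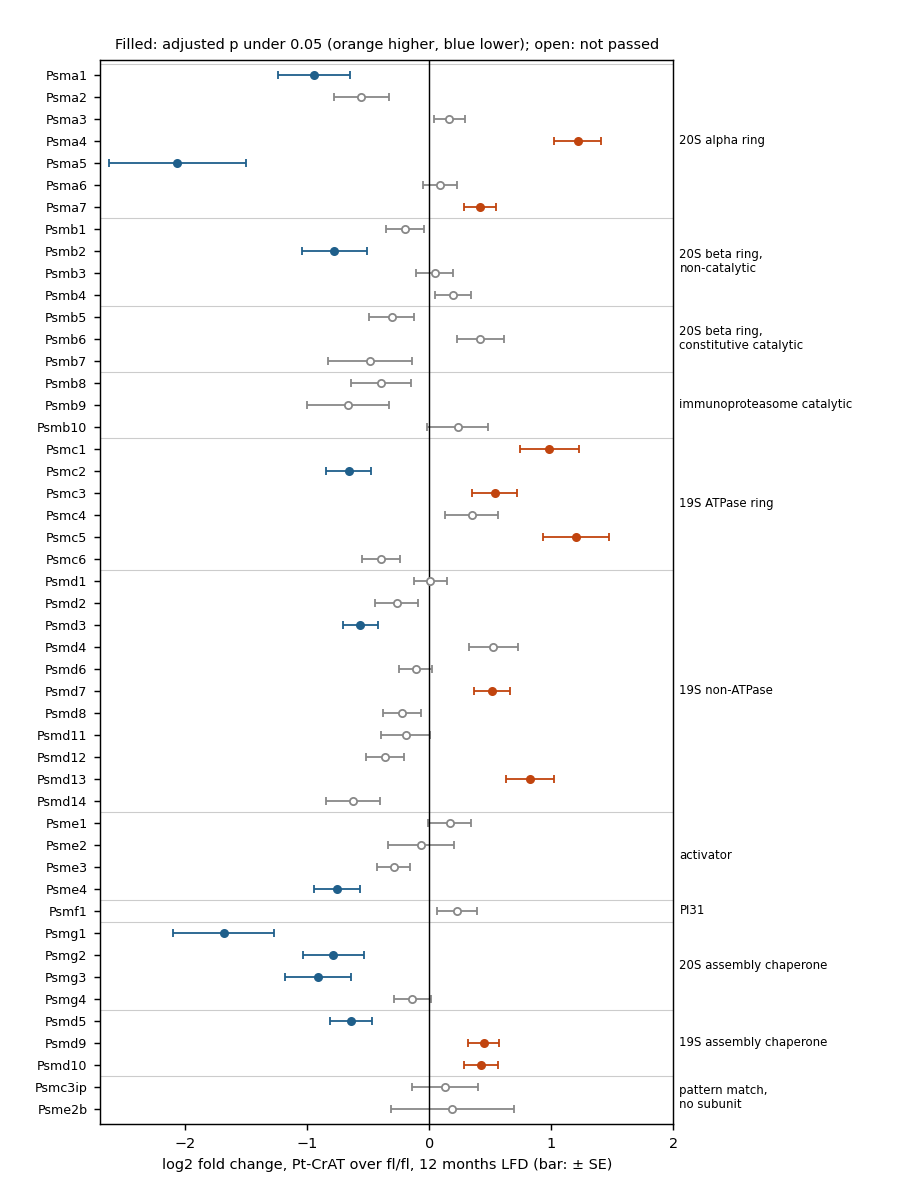
Log2 fold change, Pt-CrAT over fl/fl at 12 months, with its SE for 48 members grouped by role; filled points passed the adjusted threshold of 0.05 (9 higher, 10 lower) and open points did not. Rises and falls stand side by side within the alpha ring and the ATPase ring, while 3 of 4 core assembly chaperones are lower.

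These 12-month calls rested on few libraries. All 9 members that rose had their highest Pt-CrAT value in CrAT12MLFD328 and their lowest fl/fl value in Wt12MLFD326, and all 9 had their lowest Pt-CrAT value in CrAT12MLFD345. Of the 10 that fell, 10 had their highest Pt-CrAT value in CrAT12MLFD345, and 9 had their highest fl/fl value in Wt12MLFD326. These counts cover only members that passed and were not made over all genes, so they are not read as a trait of the members. Without CrAT12MLFD328 the test called 1 of the 19 members (Psma4), without CrAT12MLFD337 it called 2 (Psma4 and Psmc5), and without Wt12MLFD326 it called 3 (Psma4, Psmc5 and Psmd3). With both CrAT12MLFD328 and Wt12MLFD326 left out, or with only the 12-month groups in the fit, none of the 19 passed. All 19 kept their sign, which is no support for the calls. Most had groups without overlap, and leaving out libraries could hardly reverse the sign of these. The calls over all genes fell in the same fits, from the 16.4% with all libraries to 0.344% without CrAT12MLFD328, 2.54% without CrAT12MLFD337, 2.65% without Wt12MLFD326 and 0.123% without both CrAT12MLFD328 and Wt12MLFD326, so the loss is one of the whole table. Leaving out CrAT12MLFD345, Wt12MLFD327 or Wt12MLFD368 gave 20, 20 and 22 members called, with 22.8%, 18.8% and 21.4% of all genes. The Psma5 log2 fold change ranged from -2.696 to -0.847 over the alternatives, and that of Psma4 from 0.88 to 1.46.

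**Figure D3:**
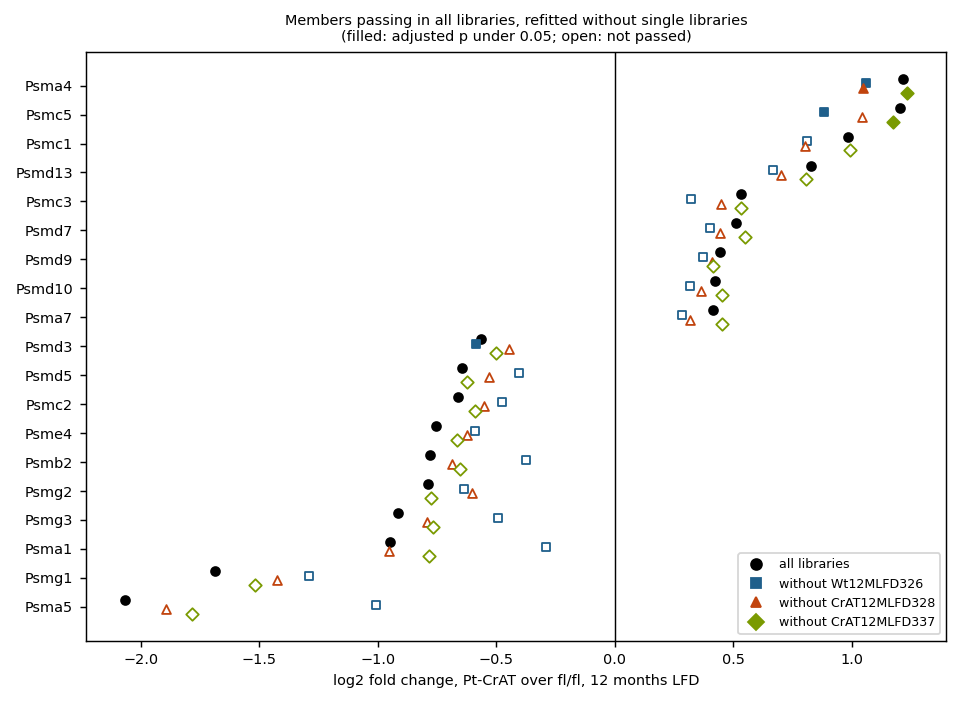
Log2 fold change at 12 months of the 19 members that passed, with all libraries (circles) and without Wt12MLFD326 (squares), CrAT12MLFD328 (triangles) or CrAT12MLFD337 (diamonds); filled symbols passed the adjusted threshold of 0.05. Few of the refitted points are filled: 3, 1 and 2 members. The points stay on the same side of 0, which could hardly differ where the groups did not overlap with all libraries.

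Markers of other cells moved with the 12-month comparison too. Of 6 adipocyte markers 5 rose in Pt-CrAT, among them Adipoq (5.01, SE 1.08, adjusted p = 0.00927) and Cfd (4.18, SE 1.08, adjusted p = 0.0192). The remaining marker, Fabp4, went the other way and did not pass. It was at 12.4, 20.8 and 64.4 CPM in Pt-CrAT and at 66.6, 36.9 and 25.04 CPM in fl/fl, overlapping. The list summed to 58.5 to 232 CPM in Pt-CrAT and 29.5 to 70.0 CPM in fl/fl. Cfd weighed most in the Pt-CrAT sums and Fabp4 in the fl/fl sums, so the fl/fl sums mostly show Fabp4. The 19 leukocyte markers in the table summed to 607 to 927 CPM in Pt-CrAT and 225.2 to 827 CPM in fl/fl. Of the 17 tested, 11 had higher and 6 lower values, and none passed. The lowest leukocyte sum of all 22 libraries, 225.2 CPM, was that of Wt12MLFD326. C1qa weighed most in the 12-month sums, at 72.1 CPM in Wt12MLFD326 and 299 to 606 CPM in the other 12-month libraries. Csf1r and Laptm5 were also lowest in Wt12MLFD326, while Cd53 (1.84 CPM) and Cd79b (1.20 CPM) were highest there among the 12-month libraries. Proximal tubule markers summed to 65234 to 78340 CPM in Pt-CrAT and 54275 to 72018 CPM in fl/fl, with 2 of 12 lower (Lrp2 and Slc27a2). In the remaining lists, 1 of 3 thick ascending limb markers (Egf) and 1 of 4 endothelial markers (Cdh5) were lower, and 0 of 2 distal, 0 of 3 collecting duct, 0 of 3 podocyte and 0 of 4 erythrocyte markers passed. Fewer cells of a type and less RNA per cell cannot be told apart in cortex libraries, and the part of these markers in the proteasome differences was not tested.

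The catalytic subunits were not among the members that passed at 12 months, and the constitutive ones did not go one way. Psmb5, which carries the chymotrypsin-like site, was at 46.3, 52.9 and 49.5 CPM in Pt-CrAT and at 49.9, 67.9 and 66.4 CPM in fl/fl (-0.31, SE 0.18, adjusted p = 0.241). Psmb6, with the caspase-like site, was at 748, 699.5 and 533 CPM in Pt-CrAT and at 302, 563 and 617 CPM in fl/fl, overlapping (0.42, SE 0.19, adjusted p = 0.126). Psmb7, with the trypsin-like site, was at 50.5, 46.0 and 101 CPM in Pt-CrAT and at 110.1, 84.8 and 84.1 CPM in fl/fl, also overlapping (-0.49, SE 0.34, adjusted p = 0.333). Each of these 3 genes had its fl/fl library Wt12MLFD326 at the low or high end of the group.

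Immunoproteasome transcripts were no more clearly different. Psmb8, which replaces Psmb5, was at 7.58, 10.4 and 11.1 CPM in Pt-CrAT and at 9.51, 13.2 and 15.7 CPM in fl/fl (-0.40, SE 0.24, adjusted p = 0.259). Psmb9, which replaces Psmb6, was at 2.01, 1.97 and 3.14 CPM in Pt-CrAT and at 5.76, 2.34 and 3.73 CPM in fl/fl (-0.67, SE 0.33, adjusted p = 0.161). Psmb10, which replaces Psmb7, was at 35.4, 44.4 and 32.1 CPM in Pt-CrAT and at 16.4, 35.3 and 43.4 CPM in fl/fl (adjusted p = 0.544). All 3 pairs of groups overlapped. The Psmb9 counts behind these levels are small, 22 to 152 reads per library over the whole series.

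**Figure D4:**
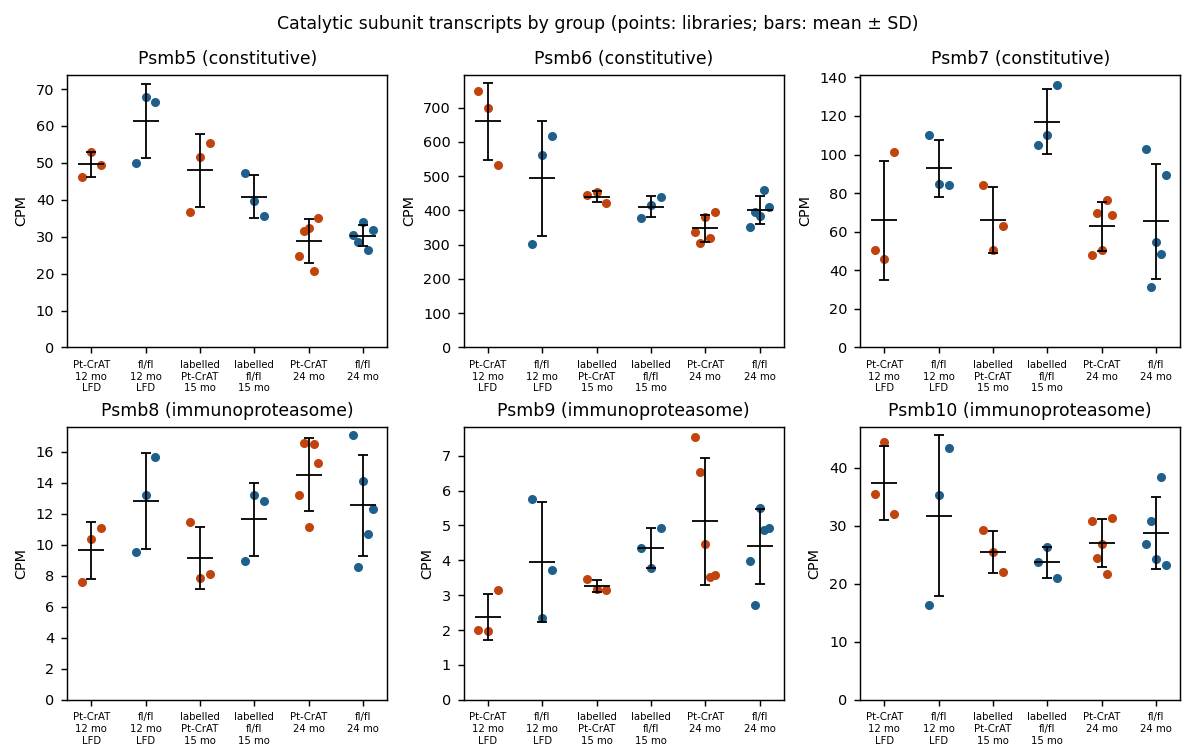
CPM of the 3 constitutive catalytic subunits (top) and their immunoproteasome counterparts (bottom) in the 6 groups; points are libraries and bars mean ± SD. Psmb5 lies at 20.6 to 34.9 CPM in the 10 libraries of 24 months and at 35.7 to 55.5 CPM in the 6 of 15 months, while the other 5 genes overlap between these ages.

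As a description with no test, the Psmb8 level was set against that of Psmb5 within each library. At 12 months it was 19.4% ± 2.99 of the Psmb5 level in Pt-CrAT and 20.7% ± 2.52 in fl/fl (SD, n = 3 each). At 15 months it was 20.3% ± 9.37 in the libraries labelled Pt-CrAT and 29.4% ± 9.12 in those labelled fl/fl (n = 3 each). At 24 months it was 52.7% ± 17.1 in Pt-CrAT and 41.3% ± 9.46 in fl/fl (n = 5 each). The 24-month libraries ran from 34.4% to 80.1% in Pt-CrAT and from 29.8% to 56.1% in fl/fl, and the 15-month ones from 14.6% to 31.1% in those labelled Pt-CrAT and from 18.96% to 35.9% in those labelled fl/fl. The ages overlap between 29.8% and 35.9%.

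The other pairs overlapped more widely. Psmb9 was 0.38% ± 0.181 of Psmb6 in Pt-CrAT and 0.976% ± 0.812 in fl/fl at 12 months, 0.741% ± 0.0376 in libraries labelled Pt-CrAT and 1.06% ± 0.133 in those labelled fl/fl at 15 months, and 1.51% ± 0.629 in Pt-CrAT and 1.10% ± 0.273 in fl/fl at 24 months. Psmb10 was 66.1% ± 32.7 of Psmb7 in Pt-CrAT and 36.0% ± 18.99 in fl/fl at 12 months, 39.9% ± 9.07 in libraries labelled Pt-CrAT and 20.7% ± 4.56 in those labelled fl/fl at 15 months, and 45.2% ± 14.2 in Pt-CrAT and 54.7% ± 32.6 in fl/fl at 24 months. Summed over the 3 genes of each kind, immunoproteasome tags made up 8.40% to 11.2% of catalytic tags in Pt-CrAT and 7.05% to 9.15% in fl/fl at 24 months. At 15 months the shares were 5.78% to 7.22% in libraries labelled Pt-CrAT and 5.98% to 7.13% in those labelled fl/fl. Psmb10 was the commonest of the 3 immunoproteasome transcripts by tag count in every group.

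**Figure D5:**
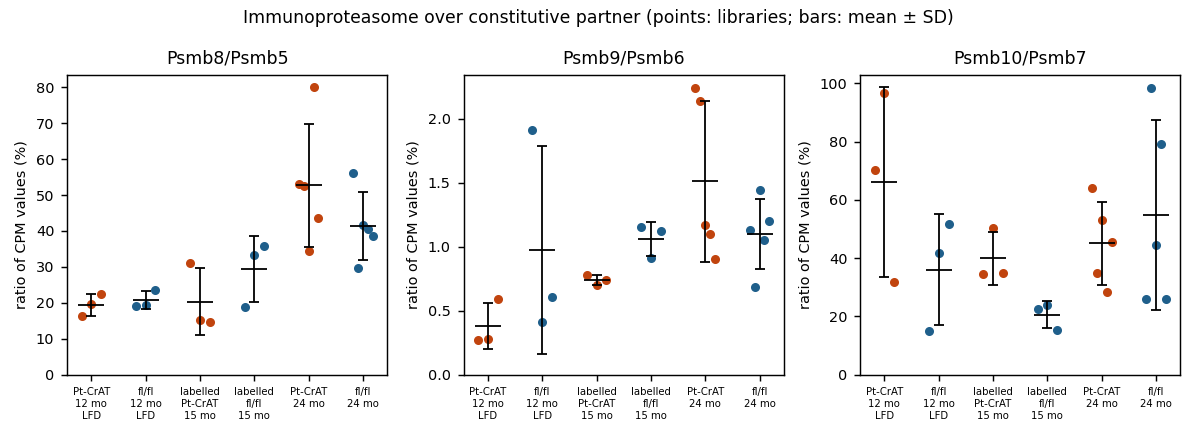
Level of each immunoproteasome catalytic subunit as a percent of its constitutive counterpart, per library (points) with mean ± SD by group. Psmb8 over Psmb5 lies at 29.8% to 80.1% in the libraries of 24 months and at 14.6% to 35.9% in those of 15 months; the other 2 ratios overlap more widely.

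Of the 4 activators, 1 passed at 12 months. Psme1 and Psme2, which form the interferon-inducible cap, were at 37.8, 40.0 and 30.8 CPM in Pt-CrAT and 27.5, 33.2 and 35.8 CPM in fl/fl (Psme1) and at 31.8, 26.9 and 34.5 CPM in Pt-CrAT and 39.3, 32.3 and 26.3 CPM in fl/fl (Psme2) at 12 months, overlapping in both. Psme3, the nuclear activator, was at 41.8, 36.1 and 37.1 CPM in Pt-CrAT and 46.4, 46.0 and 48.3 CPM in fl/fl, without overlap, but did not pass (-0.29, SE 0.14, adjusted p = 0.134). Psme4, a nuclear activator of another kind, was at 82.1, 88.2 and 127 CPM in Pt-CrAT and 203, 158 and 141 CPM in fl/fl, and fell (-0.76, SE 0.19, adjusted p = 0.0151). The inhibitor and transport adaptor Psmf1 had means of 42.2 CPM in Pt-CrAT and 36.0 CPM in fl/fl and did not pass.

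At 15 months no member passed between the libraries labelled Pt-CrAT and those labelled fl/fl by edgeR, nor did any gene (background 0%). At an unadjusted p under 0.05 there were 2 members among 1249 genes, and DESeq2 called 0 genes with 3 members at that unadjusted level. Psmg2 had the smallest p (-0.70, SE 0.25, adjusted p = 0.581), at 40.3, 33.2 and 36.6 CPM in the libraries labelled Pt-CrAT and 51.1, 61.8 and 65.5 CPM in those labelled fl/fl. Psmb7 came next, at 84.3, 50.4 and 63.2 CPM in those labelled Pt-CrAT and 105, 110.2 and 136.2 CPM in those labelled fl/fl (-0.83, SE 0.35, adjusted p = 0.581). Neither gene's groups overlapped. Over all members 17 did not overlap, 6 above and 11 below, against 24.3% of all genes.

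At 24 months, with 5 animals in each group and lower Crat values in Pt-CrAT that did not pass, no member passed by edgeR, again beside 0% of all genes. An unadjusted p under 0.05 was reached by 2 members among 1409 genes; DESeq2 called 0 members and 6 genes, with 3 members at that unadjusted level. Psmd13 was at 413, 381, 475, 286 and 449.6 CPM in Pt-CrAT and at 425, 651, 505, 586 and 514 CPM in fl/fl, overlapping (-0.42, SE 0.15, adjusted p = 0.461). Psmb3 was at 166, 177, 179, 149 and 195 CPM in Pt-CrAT and at 206, 202, 208, 209 and 208 CPM in fl/fl (-0.25, SE 0.12, adjusted p = 0.525). It was the only member whose groups did not overlap, and it lay below, against 1.53% of all genes, of which 0.797% lay below and 0.737% above. The catalytic subunits overlapped between genotypes. Psmb8 was at 13.2, 16.6, 11.1, 16.5 and 15.3 CPM in Pt-CrAT and 17.1, 8.55, 14.1, 10.7 and 12.3 CPM in fl/fl, and Psmb9 at 7.54, 6.54, 4.45, 3.51 and 3.58 CPM in Pt-CrAT and 3.98, 2.72, 5.50, 4.86 and 4.92 CPM in fl/fl.

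The genotype difference varied among the 3 settings for 4 members (8.33%; edgeR test with 2 degrees of freedom), against 5.07% of all genes. These were Psma4 (adjusted p = 0.0200), Psmd13 (0.0206), Psmc5 (0.0356) and Psmg1 (0.0432), all of which had passed at 12 months. Psma4 had log2 fold changes of 1.21 at 12 months, 0.09 at 15 months (as labelled) and -0.19 at 24 months. Psmd13 had 0.83, 0.31 and -0.42, Psmc5 1.20, 0.03 and -0.31, and Psmg1 -1.68, -0.54 and 0.48 in the same order. In each of the 4 the difference at 24 months was opposite in sign to that at 12 months, and at 24 months none passed on its own. Without CrAT12MLFD328 or CrAT12MLFD337, 0 members passed this test, and without CrAT12MLFD345 16 did. Without Wt12MLFD327 the count was 11, and without Wt12MLFD368 or Wt24Mchow145 it was 13. It was 2 without any of Wt12MLFD326, CrAT15Mchow185, CrAT15Mchow204, CrAT24Mchow124, CrAT24Mchow136, Wt24Mchow154, Wt24Mchow165 and Wt24Mchow168. The share of all genes moved with these counts, at 0.0389% without CrAT12MLFD328, 0.013% without CrAT12MLFD337, 14.3% without CrAT12MLFD345, 10.1% without Wt12MLFD327, 11.4% without Wt12MLFD368 and 13.4% without Wt24Mchow145, and at 0.844% to 2.76% in the fits that called 2 members.

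The ages were compared on chow. Over both genotypes together, a mean that does not depend on which 15-month libraries are Pt-CrAT, 5 members fell at 24 months and none rose (edgeR; 10.4% of members against 16.4% of all genes, 6.97% lower and 9.41% higher). This contrast was added after seeing the data. The members were Psmb5, Psmb1 and Psmb3 of the beta ring, Psmd3 of the cap lid, and Psme3. Of the 48 members 35 had lower and 13 higher values at 24 months, with a median log2 fold change of -0.13 beside 0.02 over all genes tested.

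Psmb5 was at 24.9, 31.6, 32.3, 20.6 and 34.9 CPM in Pt-CrAT and 30.5, 28.7, 33.9, 26.5 and 31.9 CPM in fl/fl at 24 months. At 15 months it was at 36.7, 51.6 and 55.5 CPM in the libraries labelled Pt-CrAT and 47.2, 39.6 and 35.7 CPM in those labelled fl/fl. All 10 libraries of 24 months were below all 6 of 15 months, the nearest being 34.9 and 35.7 CPM, and the log2 fold change was -0.58 (SE 0.12, adjusted p = 0.0020). It passed under all 22 alternatives tried, at -0.66 to -0.48, with the largest adjusted p at 0.0109. Within Pt-CrAT, set against the 15-month libraries labelled Pt-CrAT, the log2 fold change was -0.73 (SE 0.16, adjusted p = 0.00676). Within fl/fl, set against those labelled fl/fl, it was -0.43 and did not pass (SE 0.16, adjusted p = 0.142).

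Psmd3 was at 506, 564, 499.7, 541 and 580.0 CPM in Pt-CrAT and 585, 424, 533, 545 and 622 CPM in fl/fl at 24 months. At 15 months it was at 668, 661 and 752 CPM in the libraries labelled Pt-CrAT and 759.9, 758 and 823 CPM in those labelled fl/fl. The ages did not overlap, the log2 fold change was -0.45 (SE 0.09, adjusted p = 0.00259), and all 22 alternatives called it, at -0.47 to -0.41. Psmb3 was at 149 to 195 CPM in Pt-CrAT and 202 to 209 CPM in fl/fl at 24 months, and at 223 to 251 CPM in libraries labelled Pt-CrAT and 229 to 239 CPM in those labelled fl/fl at 15 months (-0.33, SE 0.10, adjusted p = 0.0232). Its ages did not overlap either.

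Psme3 and Psmb1 overlapped between the ages. Psme3 was at 23.3, 26.6, 30.1, 22.9 and 30.0 CPM in Pt-CrAT and 32.9, 26.4, 28.1, 32.4 and 34.0 CPM in fl/fl at 24 months. In the 15-month libraries it was at 30.9, 36.8 and 37.2 CPM in those labelled Pt-CrAT and 35.3, 35.8 and 37.4 CPM in those labelled fl/fl (-0.31, SE 0.09, adjusted p = 0.0159). Psmb1, a beta-ring subunit without a catalytic site, was at 248, 253, 285, 223 and 274 CPM in Pt-CrAT and 265, 227.4, 259.7, 279 and 325 CPM in fl/fl at 24 months. The 15-month values were 297, 369 and 345.04 CPM in libraries labelled Pt-CrAT and 339, 304 and 319 CPM in those labelled fl/fl (-0.32, SE 0.10, adjusted p = 0.0274). Of 22 alternatives, 18 called Psmb3, 20 Psme3 and 17 Psmb1; without CrAT15Mchow204 the count over both genotypes was 2, and without CrAT15Mchow185 or Wt15Mchow205 it was 3, with 9.44% to 11.3% of all genes called in these fits. Over all members 4 did not overlap between the ages, all below (Psmb5, Psmd3, Psmb3 and the cap scaffold Psmd2), against 3.35% of all genes, 1.57% below and 1.79% above.

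The immunoproteasome catalytic genes all had higher values at 24 months, and none passed. Psmb8 averaged 13.5 CPM at 24 months and 10.4 CPM at 15 months (0.39, SE 0.16, adjusted p = 0.0912), and it passed under 1 of 22 alternatives. Psmb9 averaged 4.76 and 3.81 CPM at these ages (0.33, SE 0.21, adjusted p = 0.286), and Psmb10 27.9 and 24.6 CPM (0.18, SE 0.16, adjusted p = 0.471). Within Pt-CrAT, set against the 15-month libraries labelled Pt-CrAT, Psmb8 came to 0.67 (SE 0.22, adjusted p = 0.054), and 4 of 14 alternatives called it, among them DESeq2 (adjusted p = 0.0327). The 3 genes ran from 0.08 to 0.67 in that contrast. Within fl/fl, set against those labelled fl/fl, they ran from 0.02 to 0.27 and none passed. Psmb8 averaged 12.6 CPM in fl/fl at 24 months and 11.7 CPM in libraries labelled fl/fl at 15 months. The other constitutive catalytic genes had lower values that did not pass, Psmb6 at -0.19 (SE 0.12, adjusted p = 0.293) and Psmb7 at -0.46 (SE 0.22, adjusted p = 0.154).

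Within each genotype fewer animals stood on each side, and these contrasts share their libraries with the mean over both. In Pt-CrAT against the 15-month libraries labelled Pt-CrAT, 5 members fell and none rose, against 11.3% of all genes, 5.71% lower and 5.61% higher. They were Psmb5, Psmd13 (-0.62, adjusted p = 0.0239), Psmb3 (-0.47, adjusted p = 0.0265), Psme3 (-0.39, adjusted p = 0.0383) and Psmc3ip (-0.73, adjusted p = 0.0488). Of 14 alternatives, 11 called Psmb5, 10 Psmd13, 9 Psmb3, 7 Psme3 and 2 Psmc3ip, which was lost without any of the 8 libraries. Psmd13 was at 413, 381, 475, 286 and 449.6 CPM in Pt-CrAT at 24 months and at 529, 689 and 628 CPM in the 15-month libraries labelled Pt-CrAT, without overlap. Psmc3ip was at 2.03, 2.40, 2.54, 1.85 and 2.65 CPM in Pt-CrAT at 24 months and at 3.31, 4.39 and 3.70 CPM in the 15-month libraries labelled Pt-CrAT, also without overlap. Ranges did not overlap for 14 members, 1 above and 13 below, against 10.5% of all genes above and 11.3% below. No member passed in this contrast without CrAT15Mchow185 or without CrAT15Mchow204, and none without CrAT24Mchow123 and CrAT24Mchow136 together. Without CrAT24Mchow123 alone 2 passed, without CrAT24Mchow124 3 and without CrAT24Mchow136 1. The share of all genes called was 2.73% without CrAT15Mchow185, 2.55% without CrAT15Mchow204, 2.8% without CrAT24Mchow123 and CrAT24Mchow136, and 7.32% to 9.24% in the other 3 fits. In fl/fl against the 15-month libraries labelled fl/fl, Psmd3 alone fell (-0.53, SE 0.13, adjusted p = 0.0427), against 1.3% of all genes, 0.478% lower and 0.823% higher. The call was lost in 7 of 13 alternatives, among them leaving out any of the 3 libraries of 15 months, Wt24Mchow154, Wt24Mchow164 or Wt24Mchow165. Without Wt24Mchow145 the fl/fl count was 6, with 5.04% of all genes called. Ranges did not overlap for 10 members, 1 above (8.7% of all genes) and 9 below (8.26%). The difference between the 2 age effects passed for 0 members and 0 genes by edgeR; the smallest adjusted p among members was 0.290, for Psmd13 and Psmg2, and 4 members had an unadjusted p under 0.05.

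Cell markers moved with age over both genotypes. Proximal tubule markers fell in 7 of 12 cases, with Slc5a2 at -1.02 (SE 0.13, adjusted p = 7.1e-05) and Slc27a2 at -0.81 (SE 0.14, adjusted p = 0.000835), and all 12 had lower values. Their sum ran from 11679 to 42748 CPM in Pt-CrAT and 37631 to 46143 CPM in fl/fl at 24 months. At 15 months it ran from 49368 to 57423 CPM in libraries labelled Pt-CrAT and 42516 to 51568 CPM in those labelled fl/fl. Leukocyte markers rose in 6 of 17 cases, among them Laptm5 (0.73, SE 0.14, adjusted p = 0.00184) and Fcer1g (0.95, SE 0.19, adjusted p = 0.00228), and all 17 had higher values. Their sum was 439 to 765 CPM in Pt-CrAT and 427 to 675 CPM in fl/fl at 24 months, and 365 to 505 CPM in libraries labelled Pt-CrAT and 342 to 360 CPM in those labelled fl/fl at 15 months. The T cell genes Cd3e and Cd3g and the B cell gene Ms4a1 were at 0 in some libraries. Psmb5 and Psmd3 passed also without CrAT24Mchow123 and CrAT24Mchow136 (-0.48 and -0.43). CrAT24Mchow136 had the lowest tubule marker sum, 11679 CPM. Kap, which weighed most in the sums of the other libraries, was at 2853 CPM there and 4565 CPM in CrAT24Mchow123. In the remaining 24-month libraries Kap was at 18928 to 32398 CPM. Slc34a1, Slc5a2, Slc27a2, Acsm2 and Miox were also lowest in CrAT24Mchow136, while Lrp2, Cubn, Slc13a3, Slc22a6, Slc22a8 and Cyp2e1 were not. The part of tubule and leukocyte RNA in the age differences of the members, Psmb5 and Psmd3 included, was not tested.

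Of the remaining marker lists over age, 1 of 3 thick ascending limb (Slc12a1), 1 of 3 collecting duct (Aqp2) and 1 of 4 erythrocyte markers (Hba-a1) were higher at 24 months. Both distal markers (Calb1 and Slc12a3) were lower, and 0 of 3 podocyte, 0 of 4 endothelial and 0 of 6 adipocyte markers passed.

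Genes around the proteasome, from lists chosen by function, were read in the same fits. Of 17 partners outside the family tested at 12 months, 2 rose and 3 fell. The ubiquitin receptor Adrm1 (0.74, SE 0.21, adjusted p = 0.0229) and the shuttle Ubqln4 (0.61, SE 0.16, adjusted p = 0.0174) rose. Sem1, the smallest subunit of the cap, was at 24.6 CPM on average in Pt-CrAT and 87.5 CPM in fl/fl (-1.80, SE 0.57, adjusted p = 0.0387). Its libraries were at 15.5, 15.8 and 42.4 CPM in Pt-CrAT and at 175 CPM (Wt12MLFD326), 45.7 and 41.5 CPM in fl/fl, so the groups overlapped and the fl/fl mean rests on Wt12MLFD326. Txn1 and Ubqln2 also fell. Ubqln2 was at 4.20, 3.86 and 6.56 CPM in Pt-CrAT and at 17.7 (Wt12MLFD326), 5.28 and 6.99 CPM in fl/fl, overlapping too. Of 14 regulators of proteasome genes 3 fell and none rose. They were Nfe2l1, which encodes NRF1 (-0.56, SE 0.17, adjusted p = 0.0329), Ngly1, whose product deglycosylates NRF1 (-0.84, SE 0.25, adjusted p = 0.0259), and the interferon factor Irf1 (-0.70, SE 0.24, adjusted p = 0.0455). Their groups did not overlap, and all 3 had their highest 12-month value in Wt12MLFD326. Leaving out libraries was not read out for single genes of these lists. Without CrAT12MLFD328 and Wt12MLFD326, 0.123% of all genes were called at 12 months, against 16.4% with all libraries.

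MHC class I antigen processing, which uses immunoproteasome products, showed 4 of 13 genes lower at 12 months and none higher. H2-K1 averaged 187 CPM in Pt-CrAT and 328.1 CPM in fl/fl (-0.81, SE 0.19, adjusted p = 0.0100), and H2-Q7, B2m and Tap2 fell as well. Of 20 interferon-stimulated genes tested at 12 months, Irf1 alone passed, and it fell. At 24 months none of these 4 lists had a member that passed between genotypes by edgeR, and the same held at 15 months as labelled.

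With age, over both genotypes, 2 of the 17 partners fell, Ubqln1 and Rad23b, both shuttles of ubiquitinated proteins. Of 14 regulators Nlrc5, the transactivator of MHC class I genes, rose (0.96, SE 0.29, adjusted p = 0.0269). The same gene was the only one of 13 to pass in the MHC class I list. Nlrc5 was at a low level, 0.753 to 1.53 CPM at 15 months and 1.19 to 4.09 CPM at 24 months, and the ages overlapped. Of 20 interferon-stimulated genes 5 rose and none fell, with Rsad2 (0.65, SE 0.12, adjusted p = 0.00138) and Ifi44 (0.62, SE 0.13, adjusted p = 0.00227) first by p, and 19 of 20 had higher values.

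Transcript composition was compared across the 12-month calls as a description. The longest coding transcript of the 9 members that rose had a median GC content of 51.3%, that of the 10 that fell 48.9%, and that of the 29 that did not pass 49.8%. Over all genes tested the medians were 52.9% for those that rose, 48.0% for those that fell and 50.3% for the rest, so the members lay in the same order as the whole table. At 24 months within fl/fl, 8 of the 10 members that had fallen at 12 months had their lowest value in Wt24Mchow154, and 8 of 10 their highest in Wt24Mchow145. Of the 9 that had risen, 5 had their lowest value in Wt24Mchow145 and 5 their highest in Wt24Mchow154. These libraries share a genotype and an age. The same counts were not made over all genes, so they are not read as a trait of the members, and the cause was not tested.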

How the data were processed

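Messenger RNA of kidney cortex was extracted with TRIzol and sequenced with the Lexogen QuantSeq 3′ FWD kit, per the labels' protocols. The build was GRCm38, and R 3.4.3 and DESeq2 1.18.1 were used, per the submitters' processing notes. For aligner, counter, strand setting and annotation, nothing was stated in the sources used here, which leaves overlapping and near-identical genes uncertain. The authors deposited raw read counts for 16556 genes (total of every gene at least 66), which were tested here, and a normalized signal, the counts divided by size factors, used only for symbols. Symbols were matched to GENCODE M21 for all 49 members.

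The members and all gene lists were chosen with earlier results of these data known. Tests used edgeR 4.0.16 in R 4.3.3 (TMM, filterByExpr, robust quasi-likelihood F test) on 22 libraries in 1 model of 6 groups (16 residual degrees of freedom, biological coefficient of variation 20.5%), with Benjamini-Hochberg adjustment over 15064 genes and a threshold of 0.05. Levels are TMM-scaled CPM, as mean ± SD; fold changes carry standard errors (SE). Alternatives were DESeq2 1.42.0, limma-voom 3.58.1, size-factor scaling, no filter, only the groups compared, and leaving out libraries. The test was checked on simulated counts. Nothing in the labels says how replicates relate, so p-values measure only the spread between these samples. Full values went to the catalytic subunits, the activators and up to 8 passing members per comparison with the largest change (up to 4 with the smallest p where fewer than 3 passed). Psmd3 at 12 months and the further members given by fold change were named after their values were seen. Results for 1 further gene list are not reported here.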

Additional observations from a re-analysis of the deposited data

Results flagged for a closer look

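In groups of 5, a library far from the others was seen in 5 of 66 groups examined, where chance gives about 1 in 20. Psma4 reached 150.3 CPM in Wt24Mchow154, the next fl/fl value of 24 months being 125 CPM. Psma1 reached 53.2 CPM in Wt24Mchow145, with the next at 37.5 CPM. Psmd7 was at 142.9 CPM in CrAT24Mchow136, with the next at 181 CPM. Psma7 was at 286.4 CPM in Wt24Mchow164, with the next at 311 CPM. Psmc3ip was at 1.87 CPM in Wt24Mchow154, with the next at 3.08 CPM. Wt24Mchow154 thus gave 2 of the 5.

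The genotype difference varied among the 3 settings for Psma4 (adjusted p = 0.0200), Psmd13 (0.0206), Psmc5 (0.0356) and Psmg1 (0.0432), by edgeR with 2 degrees of freedom. In each the 12-month difference was the largest in size. No member passed this test without CrAT12MLFD328, where 6 genes did, or without CrAT12MLFD337, where 2 genes did.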

How the results depend on the processing

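No paired analysis was possible because the animal numbers in the titles are not shared between groups. Leaving out 1 library at a time, the count of members called ranged from 1 to 22 at 12 months (19 with all), 0 to 0 at 15 and at 24 months, 0 to 6 for age in fl/fl (1 with all), 0 to 6 for age in Pt-CrAT (5 with all), 2 to 6 for age over both genotypes (5 with all) and 0 to 16 for the variation among settings (4 with all). In these fits the share of all genes called ranged from 0.344% to 22.8% at 12 months and 0.0195% to 5.04% for age in fl/fl. It ranged from 2.55% to 11.8% for age in Pt-CrAT, 9.44% to 17% over both genotypes and 0.013% to 14.3% for the variation among settings. DESeq2 called 3 members for age in fl/fl (4.42% of all genes), 8 for age in Pt-CrAT (12.8%) and 14 for the variation among settings (14.1%). With only the groups compared in the fit the counts were 0 at 12 months (0.00727% of all genes), 0 for age in fl/fl (1.17%) and 8 for age over both genotypes (19.7%). Without CrAT12MLFD328 and Wt12MLFD326 the 12-month count was 0 (0.123% of all genes), and without CrAT24Mchow123 and CrAT24Mchow136, chosen after seeing the data, it was 0 for age in Pt-CrAT (2.8%) and 2 over both genotypes (11.1%). Fits with fewer libraries gave both lower and higher counts, and the cause of these moves was not tested. For named members that passed, 275 of 421 refits (65.3%) kept the call and the others lost it; for those that did not pass, 12 of 546 refits gained one. No sign reversed, but the choice of members makes this likely, so it is no support for the calls. Members with a log2 fold change smaller than its SE, such as Psme2 at 12 months (-0.07, SE 0.27), were not among those refitted. Scaling by size factors gave 19 members at 12 months, moved the median of all genes by under 0.02 and changed no split of higher and lower calls. Members under 10 CPM, such as Psmb9 and Psmb2, are the least precise at this depth.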
